A study of Homo sapiens with 6 samples.

Results

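The heat shock proteins and J-domain chaperones were read in RNA-seq libraries of EJ cells, a long-used line from human bladder carcinoma. They were taken by gene symbol: every measured gene whose symbol begins with HSPA, HSPB, HSPD, HSPE, HSPH, HSP90, DNAJ or CCT and a digit, plus TCP1, HSF1, HSF2 and BAG3. This rule, which uses symbols and no expression value, found 84 of the 15953 genes. HSPBP1 and HSPBAP1 enter through their first letters but are not small heat shock proteins, and HSPB11 is a subunit of the intraflagellar transport machinery also called IFT25.

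There were 3 libraries of stable STIL-knockdown cells (shSTIL) and 3 of their controls (shNC). Labels and methods give neither the hairpin sequence nor the number of clones, while the column headings name siRNA in place of shRNA. No label says whether libraries of 1 group came from separate cultures, so each p-value measures only the spread between these libraries. STIL, the targeted centriole gene, had a log2 CPM (log2 of reads scaled to library size) of 5.98, 6.10 and 6.01 in shNC and 4.05, 4.06 and 4.01 in shSTIL, so 25.2% of the control level was left.

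Chaperones bind unfolded proteins and help them reach or keep their shape. HSP70 proteins bind and release short stretches of a client with the help of J-domain proteins, which drive ATP hydrolysis, and of exchange factors, which let the nucleotide go. HSP90 acts later on kinases, receptors and other clients, the TRiC/CCT ring encloses actin, tubulin and other proteins while they fold, and HSP60 with its lid HSP10 does so in mitochondria. The heat shock factor HSF1 switches on many of these genes when proteins unfold.

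Libraries held 16214800 to 16901600 reads, recovered from the spacing of the deposited values. EJ cells had the epithelial keratins KRT7, KRT8 and KRT18 at 1345 to 10825 reads per library, but EPCAM at 15 to 21 and CDH1 at 0 to 3. The 5 urothelial markers measured (UPK1A, UPK1B, UPK2, GATA3 and KRT20) had 0 to 33 reads. Of the leukocyte, endothelial and fibroblast markers in the tables, CD14, PECAM1, VWF and CDH5 had 0 to 11 reads and COL1A1 21 to 59. VIM had 15492 to 23924 reads, and KRT8 (log2 fold change -0.70), VIM (-0.68), FN1 (-1.19), UPK1B (-1.12) and COL1A1 (-0.96) were lower in shSTIL libraries, while KRT7 (0.49) was higher. KRT18 (log2 fold change -0.05), CDH2 (-0.31) and ZEB1 (-0.03) were not called. UPK1B had 5 to 20 reads. In simulated data all 49 limma calls at a mean log2 CPM under 1 were false. No change was planted at so few reads, so that result cannot rate the call of UPK1B. The part of these marker changes in the chaperone results was not tested.

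After STIL knockdown all 3 HSP90 genes, HSPA8, HSPB1, HSPE1 and 8 TRiC/CCT subunit genes were lower. Of 10 J-domain genes assigned here to the endoplasmic reticulum, 7 were higher, against 30.5% of all genes whose mean log2 CPM reached 1. The groups were compared on the log2 CPM of all genes with limma, and a gene was called at a Benjamini-Hochberg adjusted p under 0.01 over all genes. Of the 84 members, 54 were called (64.3%), against 47.1% of all genes. Lower members numbered 34 (40.5%), against 23.6% of all genes, and higher members numbered 20 (23.8%), against 23.5%. Low genes are seldom called, so the comparison was repeated for genes whose mean log2 CPM reached 1. There, 32 of 67 members were lower (47.8%, against 31.4% of all such genes) and 20 were higher (29.9%, against 30.5%). The median log2 fold change of the 84 members was -0.17, beside 0.01 for all genes. The groups did not overlap for 63 members (75%), against 60.3% of all genes. An exact two-sided permutation test of 1 gene over the 20 labellings of 6 libraries cannot go below p = 0.1, so no single-gene value from it is given.

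**Figure D1:**
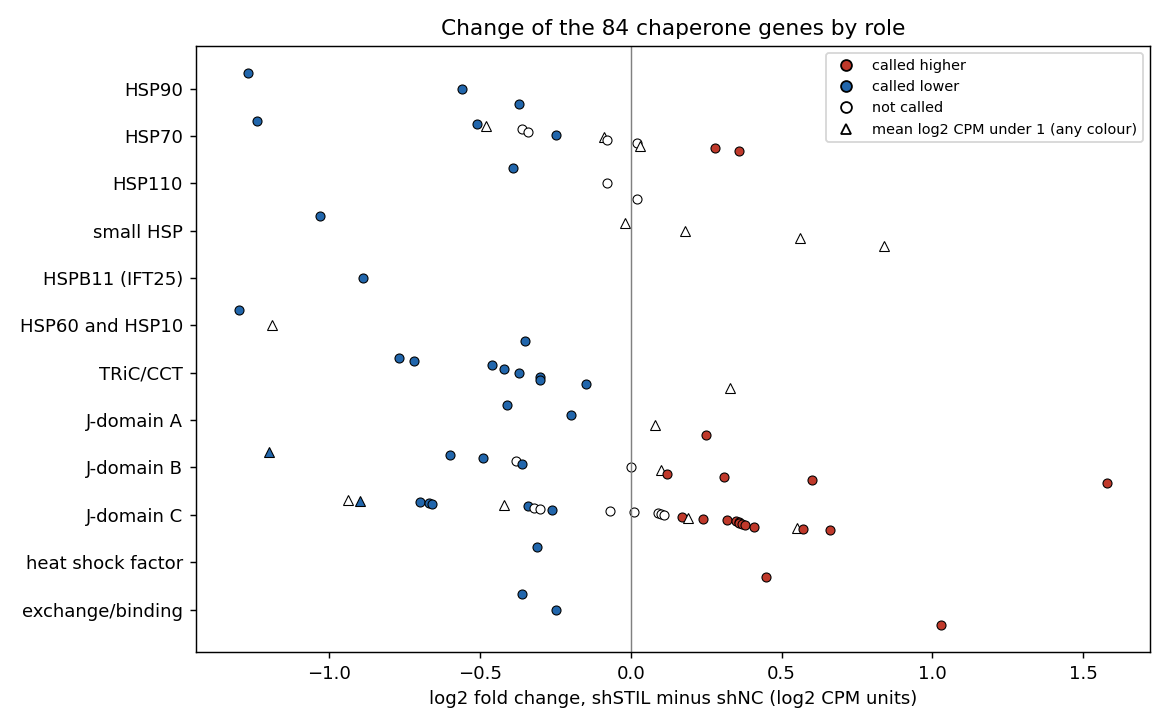
Log2 fold change (shSTIL minus shNC, log2 CPM units, x axis) of each of the 84 members, 1 point per gene, by role (y axis); filled points passed an adjusted p under 0.01 in limma, and triangles have a mean log2 CPM under 1. All 3 HSP90 genes and 8 of the 9 TRiC/CCT genes lie on the lower side and are filled, while the J-domain classes spread to both sides, with DNAJB9 farthest to the right at 1.58.

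Among called members with a mean log2 CPM of 3 or more, HSPE1, HSP90AA1, HSPA8 and HSPB1 fell most, and the summed level of the family fell by 0.37 on the log2 scale. The 84 members together took 14264, 14559 and 14623 CPM in the shNC libraries and 11171, 11249 and 11117 CPM in the shSTIL libraries. Thus 77.2% of the control sum was left, and no shSTIL library reached any shNC library. HSP90AA1, HSP90AB1 and HSPA8, chosen here after their values were seen, held 4784, 4841 and 4942 CPM in shNC and 2665, 2664 and 2629 CPM in shSTIL. Without these 3 genes the other 81 kept 88.6% of their control sum.

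HSP90AA1, the stress-inducible cytosolic HSP90, is encoded on the minus strand of chromosome 14 (102080738 to 102139699, GRCh38). It stood at a log2 CPM of 10.26, 10.37 and 10.35 in shNC libraries and 9.11, 9.06 and 9.01 in shSTIL libraries. The groups were separated by more than 1 log2 unit, and the gene fell by 1.27 on the log2 scale (standard error 0.04, limma adjusted p = 1.77e-11), which left 41.4%. HSP90AB1, the constitutive cytosolic form, had 11.25, 11.20 and 11.26 in shNC and 10.68, 10.67 and 10.68 in shSTIL. It fell by 0.56 (standard error 0.03, limma adjusted p = 1.1e-08). HSP90B1, the HSP90 of the endoplasmic reticulum, had 9.74, 9.82 and 9.78 in shNC and 9.43, 9.42 and 9.40 in shSTIL, and it fell by 0.37 (standard error 0.03, limma adjusted p = 3.72e-07). All 3 genes were therefore lower with no overlap. Of all genes whose mean log2 CPM reached 1, 31.4% were lower, and 60.3% of all genes did not overlap. The log2 ratio of HSP90AA1 to HSP90AB1 reads went from -0.91 ± 0.08 in shNC to -1.62 ± 0.05 in shSTIL (SD, n = 3), so the inducible form lost more.

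Per kilobase of the longest coding transcript, HSP90AB1 was the most abundant member in both groups, at 903 CPM per kilobase in shNC and 611 in shSTIL. HSPA8 ranked 2 in shNC at 468 and 5 in shSTIL at 198. HSP90AA1 ranked 3 at 366 and then 9 at 152. HSP90B1 moved from rank 4 to rank 2 although its own level was lower, at 308 and 239 CPM per kilobase. Whether the longest coding transcript is the one expressed was not tested, so ranks and levels per kilobase depend on that choice.

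Among the 12 HSP70 genes, 3 were lower (25%, against 23.6% of all genes), 2 were higher (16.7%, against 23.5%) and 7 were not called. The lower share was near that of all genes. HSPA8, the constitutive HSC70 of the cytosol, which also strips clathrin from vesicles, is encoded on the minus strand of chromosome 11 (123057489 to 123063230). It had a log2 CPM of 10.12, 10.18 and 10.21 in shNC and 8.90, 8.98 and 8.90 in shSTIL. It fell by 1.24 (standard error 0.03, limma adjusted p = 1.17e-11), to 42.2% of its shNC level, with a gap of more than 1 log2 unit between the groups. HSPA14, a ribosome-bound HSP70, had 4.74, 4.77 and 4.65 in shNC and 4.21, 4.24 and 4.19 in shSTIL, and fell by 0.51 (limma adjusted p = 1.04e-05). Its J-domain partner on the ribosome, DNAJC2, went the other way, from 5.36, 5.44 and 5.47 to 5.83, 5.83 and 5.69 (log2 fold change 0.36, limma adjusted p = 3.82e-05). HSPA9, the mitochondrial HSP70 of protein import, was higher in every shSTIL library, with 8.91, 8.93 and 8.94 in shNC against 9.27, 9.32 and 9.28 (log2 fold change 0.36, limma adjusted p = 2.03e-07). HSPA13, a membrane-associated HSP70 relative, rose by 0.28 (limma adjusted p = 9.73e-05), a call that was lost without shNC replicate 3 and without each shSTIL replicate.

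The stress-inducible HSPA1A and HSPA1B lie next to each other on chromosome 6, from 31815464 to 31817946 and from 31827735 to 31830255, both on the plus strand. HSPA1A had 7.87, 7.71 and 7.81 in shNC and 7.52, 7.50 and 7.61 in shSTIL, and fell by 0.25 (limma adjusted p = 0.000179). HSPA1B had 7.66, 7.46 and 7.58 in shNC and 7.58, 7.51 and 7.67 in shSTIL, a log2 fold change of 0.02 (95% interval -0.09 to 0.13, limma adjusted p = 0.745), and the groups overlapped. Of all stretches of 50 bases in the HSPA1A transcript, 72.6% also occur in HSPA1B, so the split of reads between them is uncertain. Their sum was 435.9, 386 and 415.9 CPM in shNC and 375.2, 363.8 and 399.1 CPM in shSTIL, and these values overlapped. The call of HSPA1A was lost in 5 of the 6 fits that left out 1 library, all but the one without shNC replicate 2. HSPA6, a strictly inducible HSP70, had 1 to 8 reads per library and was not called (limma adjusted p = 0.965).

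HSPA5 (BiP) is the HSP70 of the endoplasmic reticulum. Its log2 CPM was 9.62, 9.65 and 9.68 in shNC and 9.60, 9.54 and 9.56 in shSTIL. The groups did not overlap, but the log2 fold change of -0.08 (95% interval -0.15 to -0.01, limma adjusted p = 0.0406) missed the threshold. After quantile normalization it passed (log2 fold change -0.10, limma adjusted p = 0.00621). Of the HSP110 exchange factors, HSPH1 fell by 0.39 (6.65, 6.70 and 6.72 against 6.35, 6.33 and 6.21, limma adjusted p = 3.28e-06). HSPA4 had a log2 fold change of 0.02 (95% interval -0.06 to 0.11) and HSPA4L of -0.08 (95% interval -0.19 to 0.02), and neither was called.

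**Figure D2:**
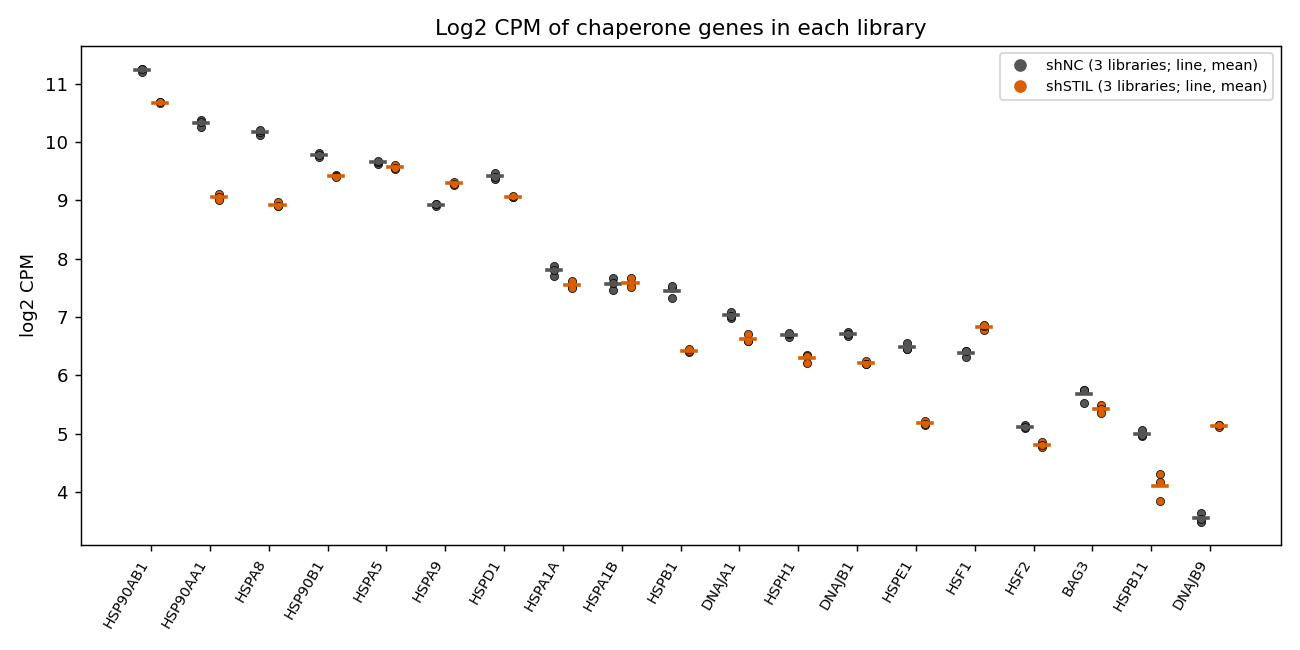
Log2 CPM (y axis) of 19 chaperone genes (x axis) in each of the 3 shNC libraries (grey) and 3 shSTIL libraries (orange), with lines at the group means. HSP90AA1, HSPA8, HSPB1 and HSPE1 drop by more than 1 log2 unit, HSPA5 and HSPA1B differ by 0.08 or less, and HSPA9, HSF1 and DNAJB9 are higher in every shSTIL library.

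Of the 5 small heat shock genes, 1 had a mean log2 CPM over 1. HSPB1 (HSP27), which holds unfolded proteins and binds actin filaments, had 7.49, 7.33 and 7.53 in shNC and 6.40, 6.42 and 6.45 in shSTIL. It fell by 1.03 (standard error 0.05, limma adjusted p = 8.88e-10), to 49.1% of the control level. HSPB2, HSPB6, HSPB8 and HSPB9 had 0 to 7 reads per library and were not called (HSPB8 0 to 2 reads, limma adjusted p = 0.965). HSPB11, the intraflagellar transport subunit, had 4.96, 4.98 and 5.06 in shNC and 3.85, 4.31 and 4.16 in shSTIL. It fell by 0.89 (standard error 0.10, limma adjusted p = 2.68e-06), with a wider spread among shSTIL libraries (SD 0.23) than among shNC libraries (SD 0.05).

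In mitochondria, HSP60 and its lid were both lower but by unequal amounts. HSPD1 (HSP60) had 9.37, 9.47 and 9.40 in shNC and 9.06, 9.06 and 9.07 in shSTIL, and it fell by 0.35 (standard error 0.03, limma adjusted p = 8.39e-07). HSPE1 (HSP10) had 6.45, 6.45 and 6.55 in shNC and 5.15, 5.22 and 5.17 in shSTIL, the largest fall of any called member at 1.30 (standard error 0.04, limma adjusted p = 4.47e-11). The log2 ratio of HSPE1 to HSPD1 reads was -2.92, -3.02 and -2.85 in shNC and -3.91, -3.85 and -3.90 in shSTIL. The readthrough gene HSPE1-MOB4 had 0, 9 and 21 reads in shNC and 0, 9 and 0 in shSTIL, far fewer than the 607 to 1487 reads of HSPE1. Of the 50-base stretches of HSPE1, 27.2% occur in transcripts of other genes, and of HSPD1 24.8%, mostly of its pseudogene HSPD1P1.

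These 2 genes are transcribed away from each other, with RefSeq start sites 105 bases apart on chromosome 2. The bases between the start sites are shown because they are the shared promoter of 2 genes that fell by different amounts, read from chr2:197500275-197500378 of GRCh38.p14 on the strand of HSPE1.
HSPD1 to HSPE1: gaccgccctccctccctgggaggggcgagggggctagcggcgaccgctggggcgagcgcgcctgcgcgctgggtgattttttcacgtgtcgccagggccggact
The stretch is 104 bases long with a GC content of 74%.

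The TRiC/CCT ring is built of subunits that are each present in equal number. All of its 8 general subunit genes were lower in shSTIL libraries, each with no overlap between the groups. Their log2 fold changes ran from -0.77 to -0.15 with a median of -0.39. Among all genes whose mean log2 CPM reached 1, 31.4% were lower, and 60.3% of all genes did not overlap between the groups. CCT3 had 8.54, 8.64 and 8.55 in shNC and 7.78, 7.81 and 7.84 in shSTIL (log2 fold change -0.77, standard error 0.03, limma adjusted p = 6.77e-10). CCT6A had 8.30, 8.37 and 8.30 against 7.58, 7.60 and 7.61 (log2 fold change -0.72, standard error 0.03, limma adjusted p = 4.79e-10). These 2 subunits lost the most, and 58.6% and 60.6% of their control levels were left. TCP1 fell by 0.46, CCT7 by 0.42, CCT5 by 0.37, CCT8 by 0.30 and CCT2 by 0.30. CCT4 changed least, with 8.35, 8.37 and 8.45 in shNC against 8.21, 8.31 and 8.19 in shSTIL (log2 fold change -0.15, limma adjusted p = 0.00467). Its call was lost whenever 1 library was left out, and that of CCT2 was lost without shSTIL replicate 1 or 3. CCT6B, a testis form of CCT6A, had a mean log2 CPM of -0.65 and was not called (limma adjusted p = 0.477).

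Per kilobase of the longest coding transcript, the most abundant subunit of the ring exceeded the least abundant by 2.29 to 2.5 times in shNC libraries and by 2.21 to 2.32 times in shSTIL libraries, ranges that overlap. CCT7 stood highest in shNC at 211 CPM per kilobase and CCT2 lowest at 89.1. This order depends on the lengths used, such as 3675 bases for CCT5 and 2031 for CCT7. After knockdown CCT7 and CCT8 were nearly level, at 158 and 159, and CCT6A (71.3) lay beside CCT2 (72.1).

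**Figure D3:**
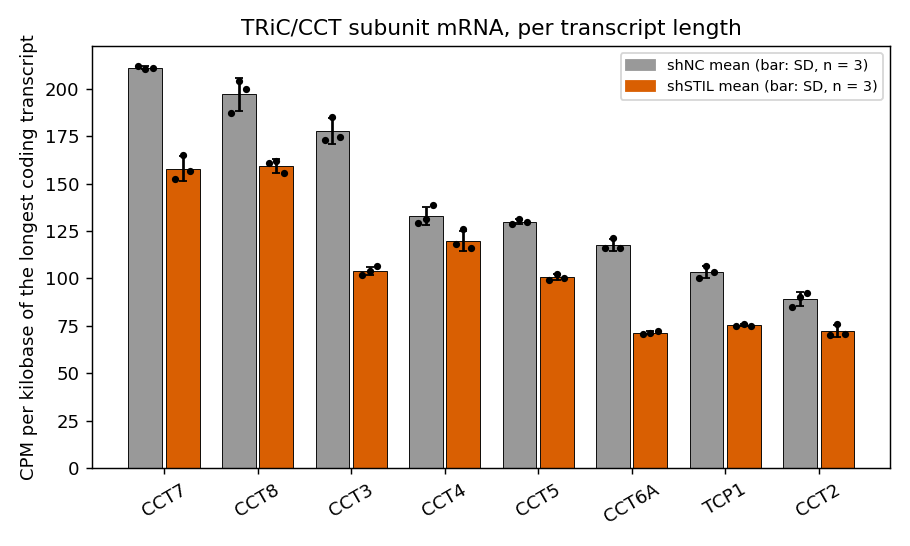
CPM per kilobase of the longest coding transcript (y axis) for 8 TRiC/CCT subunit genes (x axis); bars are means of 3 shNC (grey) or 3 shSTIL (orange) libraries, error bars SD, and points single libraries. Every orange bar is lower than its grey neighbour, from 178 to 104 for CCT3 and from 133 to 120 for CCT4.

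Of the 43 J-domain genes, 16 were higher (37.2%, against 23.5% of all genes), 12 lower (27.9%, against 23.6%) and 15 not called, with a median log2 fold change of 0.09. Among the 35 whose mean log2 CPM reached 1, 45.7% were higher, against 30.5% of all such genes, and 28.6% lower, against 31.4%, so the lower share was near that of all genes. Class A had 1 higher (25%) and 2 lower (50%) of 4 genes. DNAJA1, a cytosolic partner of HSP70, had 6.99, 7.09 and 7.01 in shNC and 6.59, 6.70 and 6.58 in shSTIL (log2 fold change -0.41, limma adjusted p = 1.91e-06). DNAJA2, another cytosolic member, fell by 0.20 (limma adjusted p = 0.000696, a call lost in 5 of 6 fits without 1 library, all but the one without shNC replicate 1), and the mitochondrial DNAJA3 rose by 0.25 (limma adjusted p = 8.65e-05).

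Class B had 4 higher (36.4%, against 23.5% of all genes) and 4 lower (36.4%, against 23.6%) of 11 genes. DNAJB1 (HSP40), the heat-inducible partner of HSP70, had 6.74, 6.67 and 6.70 in shNC and 6.25, 6.19 and 6.20 in shSTIL (log2 fold change -0.49, standard error 0.04, limma adjusted p = 8.83e-08). DNAJB5 fell by 0.60 (limma adjusted p = 1.82e-05). DNAJB2, which also binds ubiquitin chains, was higher, with 6.16, 6.12 and 6.06 in shNC and 6.78, 6.69 and 6.69 in shSTIL (log2 fold change 0.60, standard error 0.04, limma adjusted p = 2.93e-08). DNAJB6, which keeps polyglutamine proteins soluble, rose by only 0.12 (8.91, 8.92 and 8.92 against 9.03, 9.05 and 9.04, limma adjusted p = 0.00192), a call lost without the mean-variance trend (limma adjusted p = 0.0262). DNAJB7 was called lower at 0 to 5 reads per library, and neither edgeR nor DESeq2 called it. Its call was lost whenever 1 library was left out. In the simulated data no change was planted at so few reads, so they cannot rate this call.

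Class C, the most varied class, had 11 higher (39.3%, against 23.5% of all genes) and 6 lower (21.4%, against 23.6%) of 28 genes. DNAJC27, which carries a RAB-like GTPase domain, had 2.94, 2.83 and 2.79 in shNC and 3.69, 3.48 and 3.36 in shSTIL (log2 fold change 0.66, limma adjusted p = 0.000178, a call lost without shNC replicate 2 or 3 or shSTIL replicate 2). DNAJC24, an enzyme partner in diphthamide synthesis, had 4.48, 4.54 and 4.54 against 5.07, 5.18 and 5.04 (log2 fold change 0.57, limma adjusted p = 1.53e-06). On the lower side, DNAJC14 had 5.25, 5.21 and 5.22 against 4.47, 4.54 and 4.55 (log2 fold change -0.70, limma adjusted p = 9.12e-08). DNAJC9, a histone chaperone, fell by 0.67 (6.78, 6.78 and 6.79 against 6.16, 6.14 and 6.04, limma adjusted p = 1.05e-08), and DNAJC8, found with splicing factors, fell by 0.66 (limma adjusted p = 1.43e-09). DNAJC14 shares 27.9% of its 50-base stretches with other annotated genes.

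The members were also sorted by the place where the protein works, with the places of the HSP70 and HSP90 genes assigned after their values were seen. Of 13 genes of the endoplasmic reticulum, all with a mean log2 CPM over 1, 8 were higher (61.5%, against 30.5% of all such genes), 2 lower (15.4%, against 31.4%) and 3 not called, with a median log2 fold change of 0.31. Of the 61 genes of the cytosol, nucleus and other places 9 were higher (14.8%, against 23.5% of all genes) and 29 lower (47.5%, against 23.6%), with a median of -0.30. The difference between places was not tested. Places were assigned from general knowledge. DNAJC14 (log2 fold change -0.70), which could also be placed in the endoplasmic reticulum, was counted among the 61. DNAJB9 (ERdj4), which helps BiP and restrains the stress sensor IRE1, had 3.48, 3.64 and 3.54 in shNC and 5.15, 5.11 and 5.14 in shSTIL. It rose by 1.58 (standard error 0.07, limma adjusted p = 3.89e-10), to 298.7% of the control level, on 177 to 202 reads per shNC library and 594 to 605 per shSTIL library.

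Other J-domain proteins of this compartment rose less, and none of them was called higher against a minimum of 1.2-fold (limma treat). DNAJC1 rose by 0.41 (4.07, 3.81 and 3.94 against 4.32, 4.38 and 4.36, limma adjusted p = 0.00051), a call lost without shNC replicate 3 and without each shSTIL replicate. The disulfide reductase DNAJC10 rose by 0.38 (7.80, 7.92 and 7.88 against 8.24, 8.28 and 8.20, limma adjusted p = 1.15e-06). DNAJC25 rose by 0.36 (limma adjusted p = 0.00202), a call kept only without shNC replicate 2 when 1 library was left out. DNAJC16 rose by 0.37 (limma adjusted p = 0.000103) and DNAJC3, an inhibitor of the stress kinase PERK, by 0.35 (limma adjusted p = 0.00014), the latter a call lost without shNC replicate 1 or shSTIL replicate 2. In contrast, HSP90B1 and DNAJB11 (log2 fold change -0.36, limma adjusted p = 8.34e-06) were lower, and HSPA5 was not called. The log2 ratio of DNAJB9 to HSPA5 reads went from -6.11 ± 0.08 to -4.44 ± 0.02 (SD, n = 3).

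**Figure D4:**
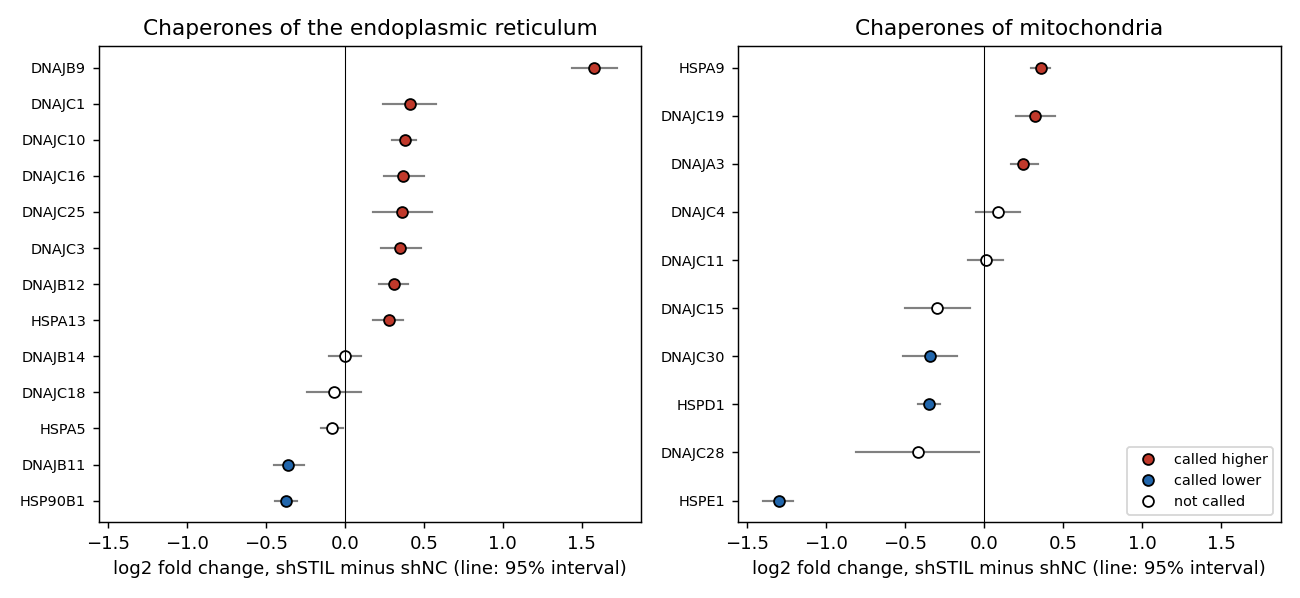
Log2 fold change (shSTIL minus shNC, x axis) with 95% intervals, genes on the y axis. Left, the 13 chaperones assigned to the endoplasmic reticulum, and right, the 10 assigned to mitochondria. Red points were called higher, blue lower, white not called. DNAJB9 lies far to the right of the other reticulum genes, HSPE1 far to the left of the other mitochondrial genes.

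Of 10 mitochondrial chaperones, 3 were higher (30%, against 23.5% of all genes), 3 lower (30%, against 23.6%) and 4 not called, shares near those of all genes. HSPA9, DNAJA3 and DNAJC19 (log2 fold change 0.32, limma adjusted p = 0.00031), which serve protein import and the HSP70 of the matrix, were the higher ones. HSPD1, HSPE1 and DNAJC30 (log2 fold change -0.34) were the lower ones, and the call of DNAJC30 was lost whenever 1 library was left out. The log2 ratio of HSPA9 to HSPD1 reads rose from -0.46, -0.55 and -0.45 in shNC to 0.21, 0.25 and 0.21 in shSTIL. These reads are not scaled to transcript length. Per kilobase of the longest coding transcript HSPD1 stayed above HSPA9, at 278 against 103 CPM in shNC and 218 against 132 in shSTIL. The lengths used were 2455 bases for HSPD1 and 4727 for HSPA9, and other transcripts would give other levels.

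The 2 heat shock factors moved in opposite directions. HSF1 mRNA was higher, with 6.41, 6.31 and 6.41 in shNC and 6.78, 6.84 and 6.87 in shSTIL (log2 fold change 0.45, standard error 0.04, limma adjusted p = 4.09e-07). HSF2, a related factor that can join HSF1 on DNA, was lower, with 5.14, 5.09 and 5.11 against 4.77, 4.85 and 4.80 (log2 fold change -0.31, limma adjusted p = 0.000159). BAG3, an HSP70 exchange factor for selective autophagy and a known HSF1 target, fell by 0.25 (5.74, 5.53 and 5.75 against 5.49, 5.42 and 5.36, limma adjusted p = 0.00311), a call kept only without shNC replicate 2 when 1 library was left out. HSPBP1, which releases nucleotide from HSP70, fell by 0.36 (limma adjusted p = 0.000523, a call that also held only without shNC replicate 2). HSPBAP1, named for binding HSPB1, rose by 1.03 on 73 to 81 reads per shNC library and 150 to 183 per shSTIL library (2.26, 2.20 and 2.38 against 3.34, 3.43 and 3.16, limma adjusted p = 6.05e-06).

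HSF1 binds inverted repeats of GAA, called heat shock elements, so promoters were searched for them. RefSeq windows of 300 bases, 250 before and 50 after the start site (GRCh38.p14), were given for 75 of the 84 members and for 12621 measured genes. An element of 2 units (GAANNTTC or TTCNNGAA, each its own reverse complement) occurred in 16 members (21.3%) and in 10.5% of all windows. Only exact units at this spacing were counted, so a member without a hit may still hold an imperfect element. An element of 3 alternating units, searched on both strands, holds an element of 2 units within it and occurred in 4 members (5.33%), DNAJA1, DNAJB6, HSPA6 and HSPA8, and in 45 of all windows (0.357%). Of these 4, DNAJA1 and HSPA8 were lower, DNAJB6 was higher, though not without the mean-variance trend, and HSPA6 was not called. Among the 41 other genes with 3 units, 10 were lower (24.4%, against 23.6% of all genes) and 7 higher (17.1%, against 23.5%). Their lower share was near that of all genes, and their median log2 fold change was 0.078.

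The promoter stretches of HSPA8 and DNAJB6 are shown because both hold 3 alternating units, in capitals, while HSPA8 fell to 42.2% and DNAJB6 rose to 108.9% of the control level. That of HSPA8 is chr11:123062149-123062386 on the minus strand and that of DNAJB6 is chr7:157336843-157336915 on the plus strand, both of GRCh38.p14.
HSPA8: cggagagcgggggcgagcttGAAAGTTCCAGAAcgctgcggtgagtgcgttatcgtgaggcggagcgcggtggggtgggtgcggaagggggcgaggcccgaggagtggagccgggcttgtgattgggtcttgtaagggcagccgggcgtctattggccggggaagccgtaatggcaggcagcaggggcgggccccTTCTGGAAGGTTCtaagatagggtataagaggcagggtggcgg
DNAJB6: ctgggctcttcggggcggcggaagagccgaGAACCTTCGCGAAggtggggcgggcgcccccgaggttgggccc
HSPA8 has 2 such elements, the nearer of which ends 43 bases before the start site, and DNAJB6 has 1, ending 119 bases before it.

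Partners of the chaperones outside the symbol rule were read from a list of 52 genes, with a median log2 fold change of -0.17. Of these, 25 were lower (48.1%, against 23.6% of all genes), 9 higher (17.3%, against 23.5%) and 18 not called. Among the 50 whose mean log2 CPM reached 1, 50% were lower, against 31.4% of all such genes, and 18% higher, against 30.5%. Of 15 HSP90 co-chaperones, all with a mean log2 CPM over 1, 11 were lower (73.3%, against 31.4% of all such genes), 1 higher and 3 not called, with a median of -0.47. STIP1 (HOP), which hands clients from HSP70 to HSP90, fell by 0.78 (limma adjusted p = 1.45e-09). Of 11 HSP70 cofactors, all with means over 1 as well, 5 were lower (45.5%, against 31.4%) and 2 higher (18.2%, against 30.5%). Prefoldin, which delivers actin and tubulin to the TRiC/CCT ring, and other ring partners had 4 lower (44.4%) and 2 higher (22.2%) of 9 genes, all over that level, against the same shares of all such genes. Within prefoldin, PFDN6 fell by 0.91 (limma adjusted p = 1.98e-08) whereas PFDN1 rose by 0.56 (limma adjusted p = 1.94e-08) and PFDN2 by 0.47 (limma adjusted p = 3.59e-06). Mitochondrial chaperones and proteases, again all over that level, had 4 higher (44.4%, against 30.5%) and 2 lower (22.2%, against 31.4%) of 9. Among them AFG3L2, an inner membrane protease, rose by 0.39 (limma adjusted p = 2.13e-06). Of 8 other heat shock genes, 3 were lower (37.5%, against 23.6% of all genes) and 5 not called, and the ubiquitin gene UBB fell by 0.84 (limma adjusted p = 9.76e-10).

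Of the 84 members, 17 had a mean log2 CPM under 1, and 2 of these were called, DNAJB7 and DNAJC12. DNAJC12 had 31, 34 and 38 reads in shNC and 15, 17 and 25 in shSTIL, and its call was lost in 5 of the 6 fits without 1 library, all but the one without shSTIL replicate 3. The other 15 were CCT6B, DNAJA4, DNAJB13, DNAJC22, DNAJC28, DNAJC5G, HSPA12B, HSPA2, HSPA6, HSPB2, HSPB6, HSPB8, HSPB9 and the readthrough genes HSPE1-MOB4 and DNAJC25-GNG10. Another 15 members had a higher mean and were not called. DNAJB4, DNAJC15, DNAJC17, HSPA1L and HSPA5 did not overlap between the groups, with adjusted p of 0.012 to 0.103 in limma, whereas the groups overlapped for DNAJB14, DNAJC4, DNAJC6, DNAJC11, DNAJC13, DNAJC18, HSPA4, HSPA4L, HSPA12A and HSPA1B.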

How the data were processed

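Reads from a BGISEQ-500 were cleaned by the authors with SOAPnuke and aligned with Bowtie2 to a transcriptome (hg38 in the submitters' processing notes), and reads per gene were estimated with RSEM; versions are not given in the sources used here. The deposited tables hold log2 CPM scaled to library size by the authors (15953 genes, 6 libraries) and estimated counts (15957 genes, 4 libraries). Reads behind the log2 CPM were recovered from its floor and spacing; 88% to 88.4% came out whole within 0.02. The plan expected whole reads; the others, being estimates, were rounded for count tests. Recovered reads differed from the deposited estimated counts by up to 0.000495.

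limma 3.58.1 (R 4.3.3, mean-variance trend, no block) was fitted to all genes; edgeR 4.0.16 and DESeq2 1.42.0 on rounded recovered reads were alternatives. Folds are on the deposited scale, whose pseudocount (2 reads, inferred from the floor) understates changes of low genes. In repeated simulations of shSTIL and shNC libraries (15953 genes) 600 changes were planted in total. There limma recovered 47.3% of 1.5-fold and 78.7% of 2-fold changes, edgeR 88.3% and 97.3%. Far fewer genes changed there than the 7509 called here, so these rates need not hold for these data. Of the limma calls 11.48% were false, 0 of 378 where the mean log2 CPM reached 1 and 49 of 49 below. Changes were planted only above a read minimum, so the share below says little about calls of low genes here. Lengths, positions and shared 50-base stretches are from GENCODE 29. Members and lists were chosen with earlier results of these data known. Named are 34 fixed members, the 8 largest rises and 8 largest falls among called members (mean log2 CPM 3 or more, groups not overlapping), and 3 each way from the partner list; others were named after their values were seen, as were the ratios and the places of HSP60, HSP10, HSP70 and HSP90 genes.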

Additional observations from a re-analysis of the deposited data

How the results depend on the processing

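The number of called members was 52 to 56 with quantile normalization, median centring, means under 1 dropped, a prior count of 0.5, edgeR and DESeq2, 46 without the trend and 61 at an adjusted p under 0.05. Against a minimum of 1.2-fold (limma treat) 23 members were called, 6 higher and 17 lower, and 3317 of all genes. Leaving out 1 library at a time gave 40 to 47 members and 4900 to 5638 genes, with fewer libraries in each fit. Without shSTIL replicate 3 the 4900 genes were the fewest, and why was not tested. All 54 calls kept their sign in every fit, and 39 kept an adjusted p under 0.01 in all 6 of the latter. Signs turned only for genes not called and for list medians. Without 1 library HSPA4 ran from -0.001 to 0.072, HSPA1B from -0.032 to 0.067, HSPB8 from -0.294 to 0.233, the J-domain A median from -0.226 to 0.034 and the J-domain B median from -0.032 to 0.027. The J-domain A median (-0.058) became 0.027 with edgeR and 0.030 with DESeq2, the J-domain B median (-0.002) became 0.002 with quantile normalization and 0.001 with DESeq2, and the small heat shock median became -1.025 once means under 1 were dropped, which left only HSPB1. The cause of the other changes was not tested. With the replicate number as a replicate block 52 members and 6898 genes were called. Same-numbered libraries deviated with correlations of -0.12, -0.06 and -0.11, so no pairing by number was seen. With 3 libraries per group these values are too few to settle whether there was any.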
